A study of Mus musculus with 6 samples.

Results

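Interferon-stimulated genes were examined in the colon of mice with colitis given PBS or the gut bacterium *Bacteroides vulgatus* (*B. vulgatus*). The set held 39 genes chosen by symbol, among them type I antiviral genes such as Isg15 and Ifit1 and genes induced by interferon-gamma such as Gbp2 and Cxcl9. Of the 18477 genes in the expression table, 37 were members of the set, and all 37 were among the 14579 genes that passed the filter on low counts. Mx1 and Mx2, dynamin-like antiviral GTPases whose mouse genes RefSeq lists on build GRCm38.p6 as transcribed pseudogenes, were not analysed here.

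Colon RNA came from 6 male C57BL/6 mice aged 6 to 8 weeks and kept under specific pathogen-free conditions. All of them drank 2% dextran sulfate sodium (DSS), which damages the epithelial lining of the colon, for the last 7 of 14 days. By daily gavage over the 14 days, the 3 mice of the DSS group received PBS and the 3 mice of the DSS+BV group received *B. vulgatus*. The study picked the sequenced mice at random from larger groups, each mouse gave 1 library, and no library from untreated mice was used here, so the comparison is between treatments of injured colons and holds no healthy baseline.

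Library totals lay between 15293276 and 17254343 expected counts, the estimates that RSEM gives when a read can match more than 1 gene. Expression is given as CPM, a gene's count scaled to a common library total. Log2 fold changes compare DSS+BV with DSS and come from the edgeR quasi-likelihood test, fitted on all 14579 genes with Benjamini-Hochberg adjusted p-values. A gene was called at an adjusted p under 0.05 together with a log2 fold change beyond 1 in either direction. All 10 epithelial markers, among them Epcam and Krt8, had reads in every library, and their summed level was 10582 to 19190 CPM in the DSS group and 18586 to 38834 CPM in the DSS+BV group. Of the 7 neutrophil markers, 5 were called lower in the DSS+BV group, against 0.0892% of all tested genes. EdgeR called no gene of the other 9 marker lists. In whole tissue, fewer cells of a type and less RNA per cell cannot be told apart. One library in each group, DSS 2 and DSS+BV 2, stood below the others for most genes of the set. The mice of the 2 groups are not pairs.

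Interferons are cytokines that cells release on meeting viral or bacterial products. Type I and type III interferons act through the kinases Jak1 and Tyk2 on a complex with Stat2 and Irf9 that binds the interferon-stimulated response element (ISRE) in promoters. Interferon-gamma, made chiefly by T cells and natural killer cells, acts through factors that bind the gamma-activated site (GAS). In the colon, these genes are expressed in epithelium, in macrophages and in other immune cells, and the gut microbiota keeps part of the response active without infection.

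Letters of the ISRE lay in the promoters of part of the members. The bases before the annotated start were searched for the ISRE core, GAAA then NN then GAAA (TTTC then NN then TTTC on the other strand, N being any base), and for the GAS core TTCNNNGAA, which reads the same on both strands. Promoters of 250 bases from RefSeq (GRCm38.p6) were held for 30 of the 39 genes. An ISRE core lay in 16 of these 30 (53.3%), against 3.46% of the 27025 genes with a promoter sequence. Outside the set, it lay in 11 of 20 interferon genes and in 5 of 7 further genes induced by interferon-gamma. It lay in 0 of 8 receptor and JAK-STAT genes and in 1 of 11 upstream sensing genes. A GAS core lay in 8 of the 30 (26.7%), against 8.13% of all genes. Of the members with a sequence, 6 of 6 interferon-inducible GTPases and 8 of 17 antiviral effectors held an ISRE core. From these, 10 promoter stretches of 60 bases are printed 5′ to 3′ on the gene's own strand, with every base of a match in capitals. They were chosen to cover 4 antiviral effectors, a transcription factor, 4 GTPases and a chemokine.

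Isg15 (chr4:156200856-156200915, minus strand): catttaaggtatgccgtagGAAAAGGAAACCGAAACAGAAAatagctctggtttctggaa
Ifit1 (chr19:34640770-34640829, plus strand): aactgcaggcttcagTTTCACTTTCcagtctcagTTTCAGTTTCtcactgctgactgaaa
Rsad2 (chr12:26456538-26456597, minus strand): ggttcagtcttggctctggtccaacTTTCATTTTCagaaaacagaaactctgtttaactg
Bst2 (chr8:71537565-71537624, minus strand): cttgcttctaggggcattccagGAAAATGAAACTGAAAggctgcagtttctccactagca
Stat2 (chr10:128270251-128270310, plus strand): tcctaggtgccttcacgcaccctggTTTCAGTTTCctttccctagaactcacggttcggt
Gbp2 (chr3:142620579-142620638, plus strand): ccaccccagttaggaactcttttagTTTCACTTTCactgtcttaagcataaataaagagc
Gbp5 (chr3:142496744-142496803, plus strand): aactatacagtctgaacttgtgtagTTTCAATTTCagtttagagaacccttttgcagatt
Irgm1 (chr11:48871421-48871480, minus strand): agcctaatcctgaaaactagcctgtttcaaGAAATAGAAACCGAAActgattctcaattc
Igtp (chr11:58199496-58199555, plus strand): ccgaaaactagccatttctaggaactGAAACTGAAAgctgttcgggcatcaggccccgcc
Cxcl10 (chr5:92349068-92349127, minus strand): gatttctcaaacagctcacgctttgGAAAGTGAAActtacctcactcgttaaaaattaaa

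All 10 stretches lie before the annotated gene. Isg15 held 3 overlapping matches, and Ifit1, Bst2 and Irgm1 held 2 each. The match nearest the start began between 24 bases (Irgm1) and 222 bases (Stat2) before it. In Gbp2 and in the first match of Ifit1, the letters TTTCACTTTC were the same. The match is a description of letters only, and its absence from the other 14 promoters says only that these letters were not in the window.

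**Figure D1:**
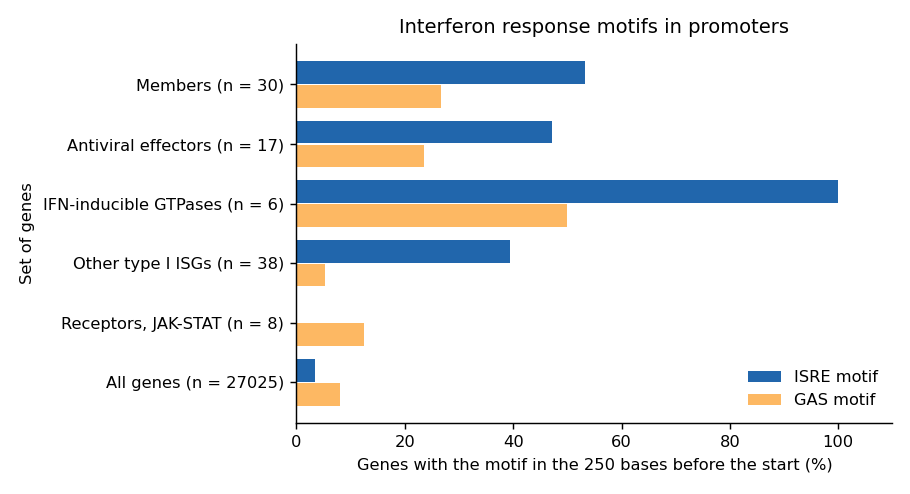
Share of genes (x axis, %) with an ISRE core (blue) or a GAS core (orange) in the 250 bases before the start, for the interferon-stimulated genes ("Members"), 2 of their roles, 2 other lists of the pathway and all genes, with n the genes that had a promoter sequence. The ISRE core was found in 53.3% of the members and 3.46% of all genes, and in 0 of 8 receptor and JAK-STAT genes.

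No member of the set was called different between the groups. Of 37 tested genes, edgeR called 0 lower and 0 higher, where it called 0.0892% of all tested genes lower (13 of 14579) and 0% higher. DESeq2 also called 0 of the 37, against 1.73% of its 16155 tested genes lower and 0.279% higher. An unadjusted edgeR p under 0.05 was reached by 0 members, against 9.12% of all genes lower and 3.4% higher. The values of the DSS and DSS+BV mice overlapped in all 37 genes, whereas the groups were apart in 11.3% of all genes in the lower direction and in 6.37% in the higher direction. The smallest adjusted p among the members was 0.425 in the edgeR test, and it belonged to Gbp5.

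The estimates lay on both sides of 0. In the DSS+BV group, 21 members had a log2 fold change below 0 and 16 above 0, with a median of -0.058 beside -0.011 for all tested genes. They ranged from -1.37 for Gbp5 to 0.50 for Rsad2. The median turned with single mice, to -0.33 without DSS 2, -0.27 without DSS+BV 3, 0.35 without DSS 3 and 0.27 without DSS+BV 2. The 95% interval of the log2 fold change held 0 in 37 of 37 members. It lay within -1 and 1 in 5 members and within -2 and 2 in 27, so for the other members a 2-fold change in at least 1 direction was within the error of these 6 mice. For 1 gene alone, 3 mice against 3 allow no two-sided p below 0.1 in an exact permutation test.

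**Figure D2:**
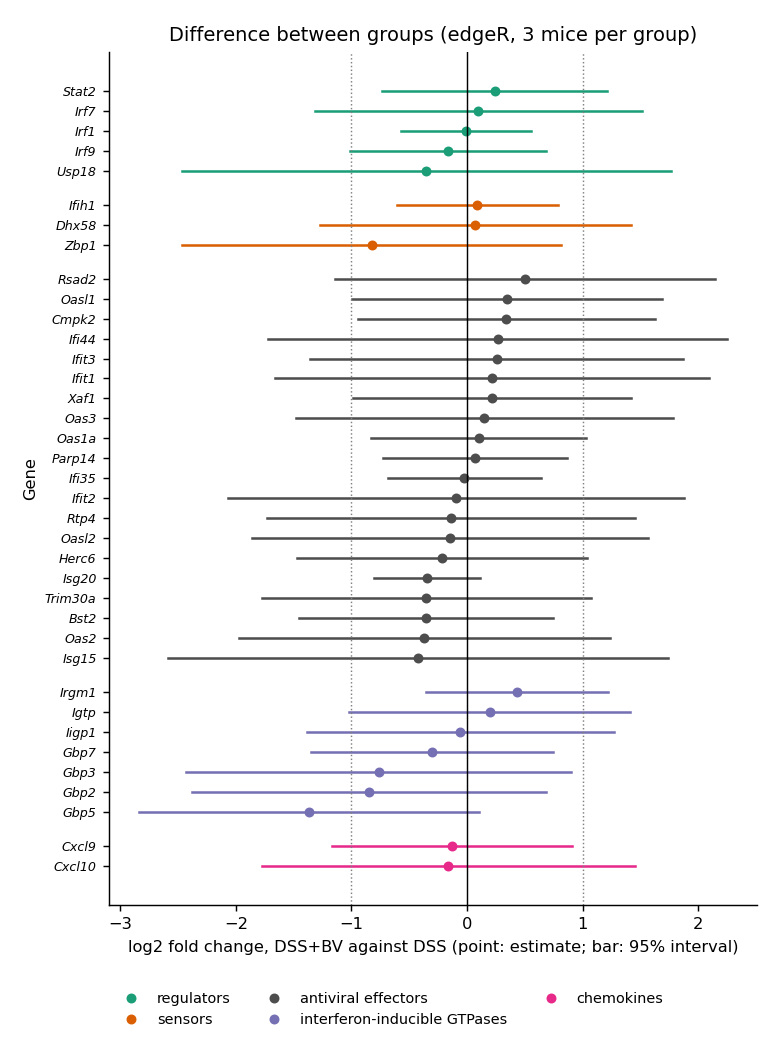
Log2 fold change of DSS+BV against DSS (x axis) for each of the 37 tested genes (y axis), grouped and coloured by role. Points are edgeR estimates with 3 mice per group, bars are 95% intervals, and dotted lines mark -1 and 1; all 37 bars cross 0, and the lowest point is Gbp5 at -1.37.

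Regulators carry the interferon signal to the genome or hold it back. The median log2 fold change over all 5 was -0.009, and 3 lay below 0 and 2 above. Stat2, a subunit of the complex that binds the ISRE, was at 91.4, 48.7 and 123 CPM in DSS mice 1 to 3 and at 124, 59.9 and 126 CPM in DSS+BV mice 1 to 3. In both groups the second mouse was the low one, and the groups overlapped. The log2 fold change of Stat2 was 0.24 (standard error 0.407, edgeR adjusted p = 0.835). Irf9, the DNA-binding subunit of that complex, was at 64.4, 36.7 and 86.9 CPM in the DSS group and at 68.1, 37.4 and 62.4 CPM in the DSS+BV group. The second mouse of each group was again lowest, and the means were 62.7 ± 25.2 and 56.0 ± 16.3 CPM (SD, n = 3 each).

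Usp18, the protease that removes Isg15 from proteins and restrains the type I receptor, varied most among the regulators. It was at 24.0, 4.10 and 31.4 CPM in the DSS mice and at 17.9, 3.12 and 25.6 CPM in the DSS+BV mice. Ratios between mice of a group were taken with a prior count of 2 added to the counts, so they differ slightly from ratios of the CPM. The highest value was 7.45 times the lowest within the DSS group and 7.93 times within the DSS+BV group. The log2 fold change between the groups was -0.35 (standard error 0.887, edgeR adjusted p = 0.894). Irf7, the transcription factor that amplifies type I interferon production, was at 232, 54.0 and 226 CPM in the DSS mice. In the DSS+BV mice it was at 153, 107 and 288 CPM, so that both the lowest and the highest mouse of the DSS+BV group lay above the matching mouse of the DSS group, and the ranges overlapped. Irf1, a transcription factor induced early by interferon-gamma, spread least in the DSS+BV group. Its values were 150, 130 and 234 CPM in the DSS mice and 173, 154 and 183 CPM in the DSS+BV mice, a log2 fold change of -0.01 with a 95% interval from -0.57 to 0.55.

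The 3 sensors detect foreign or misplaced nucleic acids. Zbp1, which binds nucleic acids in the Z form and can start necroptosis, was at 109, 20.1 and 143 CPM in the DSS mice and at 73.0, 27.5 and 53.4 CPM in the DSS+BV mice. The low DSS mouse lay under all DSS+BV mice and the other DSS mice above them. Its log2 fold change of -0.82 had a standard error of 0.686 (edgeR adjusted p = 0.646). Ifih1 (MDA5), a helicase that detects long double-stranded RNA, was at 129, 75.2 and 151 CPM against 141, 94.3 and 143 CPM. Dhx58 (LGP2), which modulates MDA5, was at 35.6, 10.6 and 38.1 CPM against 39.3, 13.7 and 35.7 CPM. For both helicases the second mouse of each group was the low one and the other mice lay close together, with log2 fold changes of 0.09 and 0.07.

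The 20 tested antiviral effectors were split evenly, with 10 estimates below 0 and 10 above and a median log2 fold change of 0.022. Isg15, the ubiquitin-like protein that is attached to other proteins, was at 55.7, 7.21 and 75.8 CPM in the DSS mice and at 41.6, 8.28 and 53.6 CPM in the DSS+BV mice. Within the DSS group its highest value was 10.3 times its lowest with the prior count added, the widest ratio of any member in that group. The means of 46.2 ± 35.2 and 34.5 ± 23.5 CPM (SD, n = 3 each) gave a log2 fold change of -0.42 with a standard error of 0.906 (adjusted p = 0.872 from edgeR). Isg20, an exonuclease that degrades viral RNA, behaved otherwise. It was at 16.6, 19.0 and 21.3 CPM in the DSS mice and at 17.0, 12.7 and 15.2 CPM in the DSS+BV mice. It had the narrowest spread of the members in the DSS group and was the one member whose lowest DSS mouse was DSS 1. Among the effectors it had the smallest p in the edgeR fit, with a log2 fold change of -0.35, a standard error of 0.191 and an adjusted p of 0.501.

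Rsad2 and Cmpk2 are neighbours on chromosome 12 and both alter nucleotides, viperin (Rsad2) by making a chain terminator of viral RNA and Cmpk2 as a mitochondrial nucleotide kinase. Rsad2 was at 16.0, 7.58 and 29.5 CPM in the DSS mice and at 22.8, 8.03 and 44.4 CPM in the DSS+BV mice. Cmpk2 was at 25.4, 10.3 and 29.8 CPM against 28.3, 12.1 and 42.5 CPM. In both genes the second mouse was lowest and the third highest in each group, and the log2 fold changes were 0.50 and 0.34. Without DSS+BV 3 they became -0.20 and -0.11.

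Oas2 and Oasl1 belong to the oligoadenylate synthetase family, whose active enzymes sense double-stranded RNA and switch on RNase L. Oas2 was at 54.9, 16.3 and 65.4 CPM in the DSS mice and at 52.4, 11.0 and 42.5 CPM in the DSS+BV mice. Oasl1 was at 41.4, 15.9 and 66.0 CPM against 44.9, 29.8 and 82.4 CPM. The log2 fold changes of the pair had opposite signs, -0.37 for Oas2 and 0.35 for Oasl1, and over the 5 family members in the set they ran from -0.37 to 0.35. Bst2 (tetherin), which holds budding virions on the cell surface, was at 44.1, 16.2 and 45.2 CPM in the DSS group and at 35.3, 15.7 and 31.5 CPM in the DSS+BV group. The lows of the groups were nearly equal and the highs differed. Trim30a, a mouse TRIM protein that restrains inflammatory signalling, was at 65.1, 23.3 and 88.9 CPM against 73.1, 19.7 and 46.1 CPM, and its log2 fold change of -0.35 had a standard error of 0.596.

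The remaining effectors and GTPases were Ifit1, Ifit2, Ifit3, Ifi44, Ifi35, Oas1a, Oas3, Oasl2, Rtp4, Xaf1, Parp14, Herc6, Igtp and Iigp1. Their 14 log2 fold changes ran from -0.22 to 0.27, with a smallest adjusted edgeR p of 0.886. The summed level of Ifit1, Ifit2 and Ifit3, which bind viral RNA with foreign 5′ ends and lie together on chromosome 19, was 166, 54.6 and 303 CPM in the DSS mice and 169, 51.9 and 326 CPM in the DSS+BV mice. Each group held a low, a middle and a high value, and the groups overlapped almost fully. For Ifit1, Ifit3, Oas1a, Oas3, Igtp and Trim30a, some library had a count that was not whole, which RSEM gives where reads are divided between near-identical genes or transcripts, so their levels are less certain. Such values were present for 8.51% of all genes in the table.

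**Figure D3:**
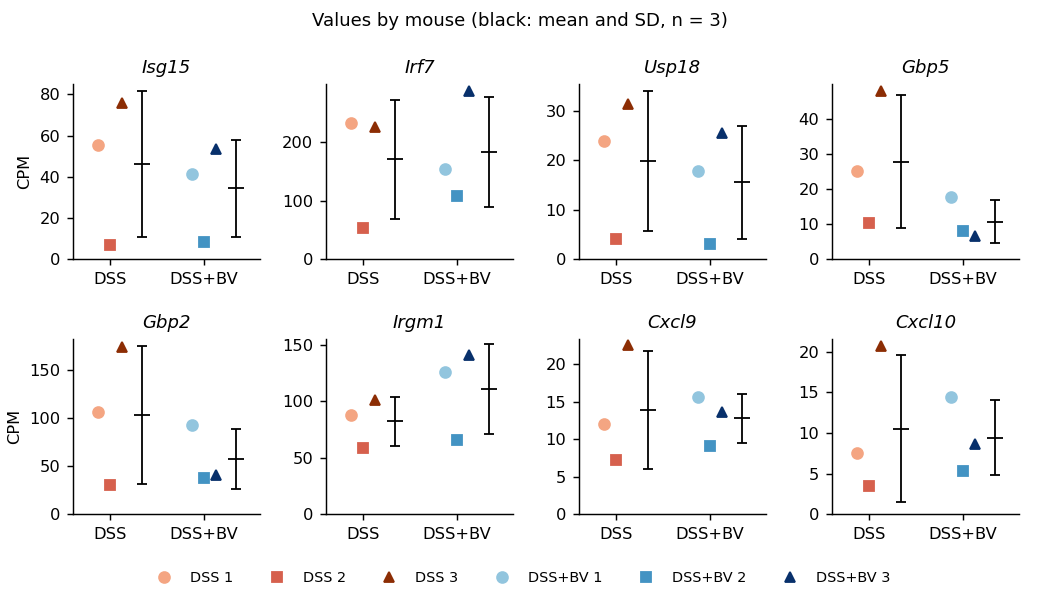
CPM (y axis, linear, from 0) of 8 members in each mouse, with DSS in red shades and DSS+BV in blue shades; black bars are the mean and SD of 3 mice, and equal marker shapes show equal replicate numbers, which are not pairs. In Isg15, Usp18 and Irf7 the second DSS mouse is far below the other DSS mice, and in Gbp5 the third DSS+BV mouse is lowest at 6.58 CPM.

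Interferon-inducible GTPases attack the vacuoles and membranes of intracellular microbes. The 7 members had 5 estimates below 0 and 2 above, with a median log2 fold change of -0.31. Gbp5, a guanylate-binding protein that also promotes inflammasome assembly, was at 25.2, 10.3 and 47.8 CPM in the DSS mice and at 17.7, 7.96 and 6.58 CPM in the DSS+BV mice. Only the first DSS+BV mouse reached into the DSS range. The means were 27.8 ± 18.9 and 10.8 ± 6.09 CPM (SD, n = 3 each), and the log2 fold change of -1.37 (standard error 0.616) had an unadjusted p of 0.0636 and an adjusted p of 0.425 in the edgeR fit and an adjusted p of 0.251 with DESeq2. Without DSS 3 the log2 fold change of Gbp5 was -0.72, and without DSS+BV 1 it was -1.93.

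The other guanylate-binding proteins of the set come from the same cluster on chromosome 3. Gbp2 was at 106, 30.2 and 174 CPM in the DSS mice and at 93.2, 37.9 and 41.2 CPM in the DSS+BV mice. Gbp3 was at 53.1, 12.1 and 74.6 CPM against 44.7, 12.6 and 25.0 CPM. Gbp7 was at 44.6, 23.4 and 62.0 CPM against 51.1, 20.5 and 33.7 CPM. In all of them the third DSS+BV mouse lay nearer to the second than to the first, and the third DSS mouse was highest of all. Their log2 fold changes were -0.85, -0.77 and -0.31, with adjusted edgeR p-values of 0.615, 0.673 and 0.798. Without DSS 3, the value of Gbp2 was -0.25, that of Gbp3 -0.25 and that of Gbp7 0.04.

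Irgm1, a regulator of the immunity-related GTPases, was at 87.4, 58.3 and 101 CPM in the DSS mice and at 126, 65.4 and 141 CPM in the DSS+BV mice. There the third DSS+BV mouse was the highest of all 6. The log2 fold change was 0.43 (standard error 0.329, edgeR adjusted p = 0.62). The division of the GTPases into guanylate-binding proteins and immunity-related GTPases (Irgm1, Igtp and Iigp1) was chosen after their values were seen. The mean log2 CPM relative to the 6 mice was -0.55 in DSS+BV 3 for the guanylate-binding proteins and 0.60 for the immunity-related GTPases, whereas in DSS+BV 2 it was -0.94 and -0.84.

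The chemokines Cxcl9 and Cxcl10 draw T cells through their receptor Cxcr3, and both are textbook targets of interferon-gamma. Cxcl9 was at 12.0, 7.27 and 22.6 CPM in the DSS mice and at 15.6, 9.11 and 13.7 CPM in the DSS+BV mice. Cxcl10 was at 7.54, 3.42 and 20.7 CPM against 14.4, 5.29 and 8.6 CPM. The third DSS mouse was highest for both and the second DSS mouse lowest, with all 3 DSS+BV mice between them. The log2 fold changes were -0.13 and -0.16, with 95% intervals from -1.17 to 0.91 and from -1.77 to 1.45.

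In every member, the range over the mice of a group was wider than the fold change between the groups. A range over single mice and a difference between group estimates are unlike measures. In the median member, with the prior count added, the highest DSS mouse was 3.85 times the lowest and the highest DSS+BV mouse 2.76 times. In the median of all tested genes these ratios were 1.52 and 1.30 times. The size of the log2 fold change was smaller than the log2 range within either group in 37 of 37 members, as it was in 62.3% of all genes. DSS 2 was the lowest DSS mouse in 36 of 37 members, against 32.2% of all genes. DSS+BV 2 was the lowest DSS+BV mouse in 36 of 37 as well, against 24.7% of all genes. Both held in 35 members (94.6%) and in 9.54% of all genes, and the exceptions were Isg20 and Gbp5. The labels give no batch or date for the libraries. The highest DSS mouse was DSS 3 in 33 members (89.2%), against 38.2% of all genes. In the DSS+BV group, DSS+BV 3 was highest in 23 members (62.2%), against 37.5% of all genes. DSS+BV 1 was highest in 14 (37.8%), close to its 38.6% of all genes.

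**Figure D4:**
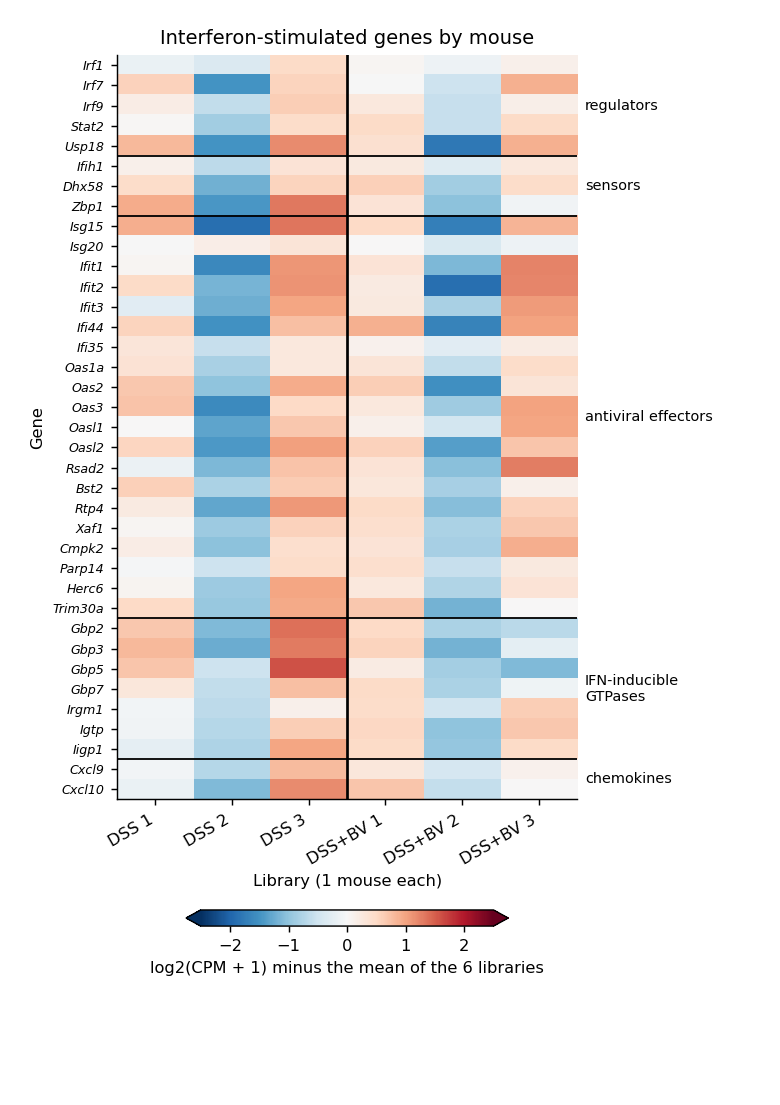
Log2(CPM + 1) of each of the 37 tested genes (rows, by role) in each mouse (columns), as the difference from the mean over the 6 libraries, blue for below and red for above. The columns of DSS 2 and DSS+BV 2 are blue in nearly every row, and DSS+BV 3 is red in most effectors and blue in Gbp2, Gbp3 and Gbp5.

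The same order stood in the summary of the whole set. The mean over the 37 members of log2 CPM, relative to the 6 mice, was 0.30, -1.04 and 0.82 in the DSS mice and 0.40, -0.92 and 0.45 in the DSS+BV mice. The 3 DSS+BV values all lay between the lowest and the highest DSS value. For the antiviral effectors alone it was 0.30, -1.12 and 0.78 against 0.39, -1.03 and 0.68. Summed levels of the markers of some immune cells moved with part of this order. The summed level of the 10 macrophage and monocyte markers was 1239, 770 and 1793 CPM in the DSS mice and 1285, 545 and 498 CPM in the DSS+BV mice, and none of them was at 0 in any library. DSS 2 was the lowest DSS mouse for 9 of the 10, while in the DSS+BV group DSS+BV 2 was lowest for 3 and DSS+BV 3 for 7. DSS+BV 3 was thus low in macrophage markers and in the 4 guanylate-binding proteins of the set, and high in effectors. Among guanylate-binding genes outside the set, DSS+BV 3 was the highest of its group for Gbp6 and Gbp10 and the lowest for Gbp2b. For Gbp4, Gbp8 and Gbp9 it lay between the other mice of its group.

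For the 9 T cell markers the summed level was 51.6, 42.3 and 87.3 CPM in the DSS group and 90.5, 40.2 and 43.1 CPM in the DSS+BV group. For the 7 markers of conventional dendritic cells it was 47.9, 29.5 and 78.0 CPM against 62.3, 28.9 and 25.4 CPM. Both sums were low in DSS 2, DSS+BV 2 and DSS+BV 3, but single markers differed. DSS+BV 3 was the lowest mouse of its group for 6 of the 7 dendritic cell markers and for 2 of the 9 T cell markers, and it was the highest of its group for Cd8a. The 8 natural killer and cytotoxic markers, 4 of them tested, summed to 18.7, 16.0 and 34.4 CPM against 20.1, 20.3 and 24.6 CPM. DSS+BV 3 was the highest of its group for 3 of the 4 tested markers. It was the lowest of its group for Ncr1, Klra8, Prf1 and Eomes, whose counts were too low to be tested. In 1 or more libraries Klra8 was at 0. B and plasma cell markers summed to 656, 552 and 1613 CPM against 1119, 267 and 245 CPM. Plasmacytoid dendritic cell markers went otherwise, at 267, 641 and 618 CPM against 736, 786 and 1084 CPM. Most of each of these sums was Klk1, the 1 tested marker of that list for which DSS 2 was the highest DSS mouse. The epithelial sum was 10582, 19190 and 13846 CPM in the DSS mice and 18586, 31408 and 38834 CPM in the DSS+BV mice. The marker Muc2 weighed heavily in the largest sum of each group: DSS 2 had 10171 CPM of it, and DSS+BV 3 had 20700. By single markers the order was another. DSS 3 was the highest DSS mouse for 6 of the 10 epithelial markers and DSS 2 for 3. Among the DSS+BV mice, DSS+BV 2 was highest for 5 and DSS+BV 3 for 3. Neutrophil markers summed to 633, 202 and 1014 CPM against 324, 228 and 29.4 CPM. Ly6g alone was at 485, 76.1 and 854 CPM against 303, 215 and 19.1 CPM, and its groups overlapped. For the other 6 of the 7 markers, every DSS+BV mouse lay below every DSS mouse, as was so for 11.3% of all tested genes. The part of these cells in the levels of the interferon-stimulated genes was not tested.

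**Figure D5:**
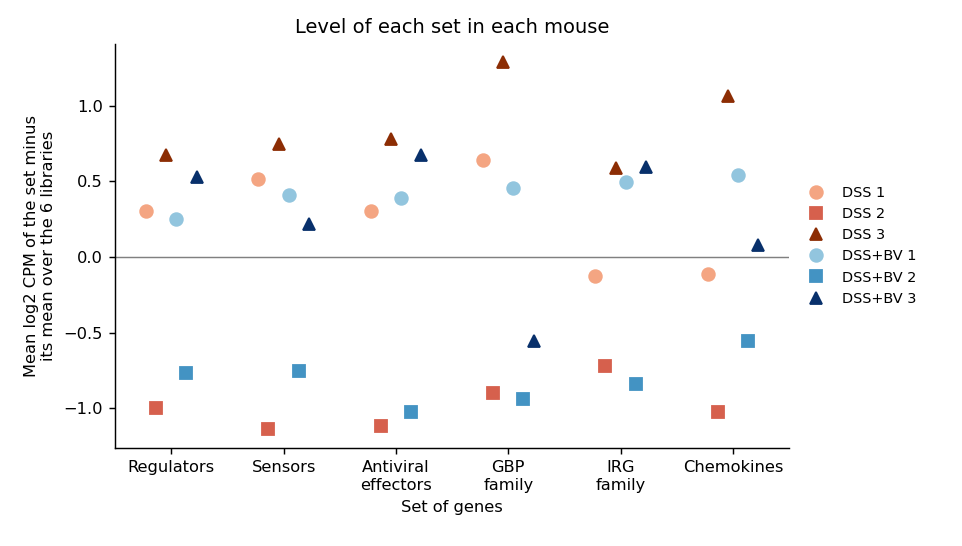
Mean log2 CPM of each set minus its mean over the 6 libraries (y axis) in each mouse, for regulators, sensors, antiviral effectors, guanylate-binding proteins (GBP), immunity-related GTPases (IRG) and chemokines; the marker shape gives the replicate number, which does not pair mice. The second mouse of each group is lowest in every set, and DSS+BV 3 is at -0.55 for the 4 GBP members and at 0.60 for the 3 IRG members.

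Ligands of the pathway were hardly counted. Of 21 interferon genes, 6 were in the table and 0 passed the filter. Ifng had 4, 2 and 3 counts in the DSS libraries and 0, 2 and 2 in the DSS+BV libraries. Ifnb1 had 0 counts in all 6 libraries, which allows up to 3 counts in each library. The other interferons in the table, Ifnk, Ifnz, Ifnl2 and Ifnl3, had at most 1 count in a library, so no difference in ligand was detectable at this depth.

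Among 10 receptor and JAK-STAT genes, 0 were called by edgeR or DESeq2. Ifnar1 and Ifnar2 form the type I receptor. Ifnar2 was at 31.9, 25.2 and 48.4 CPM in the DSS mice and at 26.9, 16.6 and 19.3 CPM in the DSS+BV mice, with a log2 fold change of -0.75 (standard error 0.297). Its unadjusted p of 0.0417 became an adjusted p of 0.389 in the edgeR fit. Ifnar1 had a log2 fold change of -0.10 (edgeR adjusted p = 0.712). For this gene all 3 DSS+BV mice lay just under the DSS mice, as was so for 11.3% of all tested genes. The subunits of the interferon-gamma receptor had values of -0.42 for Ifngr1 and 0.04 for Ifngr2, and the type III receptor subunit Ifnlr1 had 0.11.

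Inhibitors and upstream sensors were not called either, at 0 of 7 and 0 of 13. Socs3, a feedback inhibitor of cytokine receptors that use Stat3, was at 122, 66.1 and 183 CPM in the DSS mice and at 70.0, 70.5 and 29.6 CPM in the DSS+BV mice. Its log2 fold change was -1.12, with a standard error of 0.458 and, in the edgeR fit, an adjusted p of 0.394 after an unadjusted p of 0.0457. Ptpn1, a phosphatase that acts on Jak2 and Tyk2, had -0.34, and Socs1, the feedback inhibitor most tied to interferon, had -0.46 at 2.61 to 7.10 CPM. Tlr3, the endosomal receptor for double-stranded RNA, had 0.29 and Mavs, the adaptor of the RNA helicases, had 0.28. For Mavs and for Ticam1, the adaptor of Tlr3, each DSS+BV mouse was above each DSS mouse, as was so for 6.37% of all tested genes. Ticam1 was named after its values were seen.

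A second list held 48 other type I interferon-stimulated genes, 47 of them tested, with a median log2 fold change of -0.12 (32 below 0 and 15 above). EdgeR called 0 of them and DESeq2 called 2 lower, Ifitm1 and Ifitm3, where DESeq2 called 1.73% of all its genes lower. These are interferon-induced transmembrane proteins that block the entry of enveloped viruses. Ifitm1 was at 127, 70.9 and 215 CPM in the DSS mice and at 44.2, 32.5 and 38.1 CPM in the DSS+BV mice. Ifitm3 was at 257, 141 and 309 CPM against 114, 85.9 and 97.5 CPM, and Ifitm2 was at 188, 173 and 269 CPM against 105, 103 and 119 CPM. Every DSS+BV mouse lay below every DSS mouse in these 3 of the 47 genes, a smaller share than the 11.3% of all tested genes that were apart in that direction. The log2 fold changes of Ifitm1, Ifitm2 and Ifitm3 were -1.85, -0.94 and -1.25, with adjusted p-values of 0.218, 0.212 and 0.249 from edgeR and 0.00101, 0.00586 and 0.0121 from DESeq2. Ifitm3 was named after its values were seen. Levels of stromal cell markers stand beside these values. The summed level of the 5 fibroblast markers was 1357 to 1716 CPM in the DSS mice and 654 to 941 CPM in the DSS+BV mice, and that of the 5 endothelial markers was 288 to 361 CPM against 189 to 258 CPM. None of these 10 markers was at 0 in any library. EdgeR called 0 of either list. An unadjusted edgeR p under 0.05 in the lower direction was reached by 5 of 5 fibroblast and 2 of 5 endothelial markers, against 9.12% of all tested genes. DESeq2 called 2 fibroblast and 0 endothelial markers lower. Of the marker lists, only that of the colon epithelium had a median log2 fold change above 0, at 0.46. The medians were -3.61 for neutrophil, -0.89 for B and plasma cell and -0.86 for macrophage and monocyte markers. They were -0.84 for fibroblast and -0.62 for endothelial markers. The part of any of these cell types in the levels of Ifitm1, Ifitm2 and Ifitm3 was not tested.

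The difference between groups in Ifitm1 stood beside a spread within the DSS+BV group that was small (38.3 ± 5.85 CPM, SD, n = 3) where that of Isg15 was wide. Within the DSS group Ifitm1 also spread widely, at 138 ± 72.8 CPM (SD, n = 3), with DSS 2 lowest. Helz2, a helicase coactivator also named after its values were seen, was the 1 gene of this list with an unadjusted p under 0.05 in the higher direction (log2 fold change 0.60, edgeR adjusted p = 0.371). The low second mouse recurred in this list, with DSS 2 lowest in 42 of 47 genes and DSS+BV 2 lowest in 41 of 47. Of 18 tested genes induced chiefly by interferon-gamma, 0 were called by either tool, and the smallest p-values belonged to Cd274 (PD-L1), with a log2 fold change of -0.61, and to Gbp4, with -0.53. DSS 2 was lowest in 17 of these 18 and DSS+BV 2 in 16 of 18, whereas among the receptor and JAK-STAT genes the counts were 6 and 2 of 10.

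Per kilobase of exon, the members differed widely in level. Values are CPM divided by the length of all annotated exons of the gene, averaged over the 6 mice. Oas1a was highest at 62.4 CPM per kilobase, followed by Isg15 at 53.4, Irf7 at 46.8, Irf1 at 43.0 and Bst2 at 34.7. Gbp5 at 2.90 and Herc6, the mouse ligase for Isg15, at 2.69 were lowest. The first neighbours in this order did not differ beyond the spread between mice, with Oas1a at 60.2 ± 23.3 and Isg15 at 61.1 ± 46.6 CPM per kilobase (SD, n = 3 each) in the DSS group.

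The genes outside the set whose log2 CPM followed the set's mean most closely over the 6 libraries were Uba7 (Pearson r = 0.992), H2-K1 (0.987), Phf11a (0.986), Parp9 (0.977) and Tap2 (0.977). Uba7 encodes the enzyme that activates Isg15, H2-K1 a class I antigen-presenting molecule and Tap2 a subunit of the peptide transporter that supplies it. Uba7 was at 64.8, 43.4 and 86.1 CPM in the DSS mice and at 70.3, 45.7 and 72.7 CPM in the DSS+BV mice. These correlations rest on 6 points that share libraries and scaling, and they describe the order of the mice rather than the treatment.

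Members with an ISRE core had a higher median spread between mice than members without one, a difference that was not tested. The median log2 range within the DSS group was 2.07 for the 16 genes with the core and 1.59 for the 14 without, and within the DSS+BV group it was 1.58 and 1.28. Outside the set, 369 tested genes with the core had medians of 0.72 and 0.40, and 11175 without it had 0.58 and 0.37. The medians of both kinds of member were above those of other genes with the same letters in their promoters. The median log2 fold change was -0.029 for members with the core and -0.016 for those without, each close to the median of all genes.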

How the data were processed

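Colon RNA of 3 DSS and 3 DSS+BV mice was analysed. The authors deposited RSEM expected counts per gene, not scaled between libraries. The submitters' processing notes name HISAT2 2.1.0, Bowtie2 2.2.5, RSEM 1.2.8 and GRCm38.p6. Groups came from the sample labels. Expected counts were rounded to whole numbers and filtered with filterByExpr (minimum count 10, minimum total 15), which left 14579 of 18477 genes. Libraries were scaled with TMM factors and compared with edgeR 4.0.16 in R 4.3.3, with no covariate, since the study states none. The study used DESeq2, which was run as an alternative (version 1.42.0). The biological coefficient of variation was 32.1%. Depth limits the precision of low genes, and a count of 0 allows up to 3 counts, for counting error only.

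The members, roles, pathway lists and markers were chosen with earlier results of these data known. Per role, the members with the smallest p-values were given by mouse (5 regulators, 3 sensors, 8 effectors, 5 GTPases, 2 chemokines). For the pathway, main receptors, ligands, Socs1 and the 2 genes of smallest p per list were named, and 1 further gene of the rule is not reported here. Scores and ranges within a group used log2 CPM with a prior count of 2. Promoters and gene positions came from RefSeq GRCm38.p6 and exon lengths from GENCODE M21. Tests were tried on simulated data. Other scaling factors, filters, a robust fit, a replicate block and leaving out each library were alternatives. Figures were drawn with matplotlib 3.10.9.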

Additional observations from a re-analysis of the deposited data

How the results depend on the processing

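No member was called under DESeq2, RLE or upper-quartile factors, either other filter on low counts, the robust fit, the replicate block, an adjusted p alone or with any 1 library left out. Of all genes, DESeq2 called 280 lower and 45 higher, the replicate block 0 lower, and fits without 1 library between 0 and 3 lower and between 0 and 4 higher. Pathway genes called rose from 0 to 2 with DESeq2. Marker genes called were 5 in the reported fit, 10 with DESeq2, 0 with the replicate block and 0 to 4 with 1 library left out. The cause of these differences was not tested, though fits without 1 library hold fewer samples. The members' median log2 fold change ran from -0.33 to 0.35 with 1 library left out, was -0.12 with upper-quartile factors and 0.015 with the replicate block. The labels tie no numbers to a litter, and deviations of same-numbered mice correlated at 0.27, 0.25 and -0.30 over genes, so the block is given as an alternative only; not every library correlated best with its own number.

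With other tools and filters, the sign turned for Irf1 (0.011 with DESeq2, 0.017 with every gene with a count, 0.034 with the replicate block) and Cxcl10 (0.11 with the replicate block), and for no other of the 23 members given by mouse. With 1 library left out, log2 fold changes changed sign within -0.043 to 0.56 for Stat2, -0.43 to 0.15 for Irf9, -0.91 to 0.15 for Usp18, -0.39 to 0.38 for Irf7, -0.16 to 0.28 for Irf1, -0.14 to 0.30 for Ifih1, -0.31 to 0.42 for Dhx58, -0.20 to 1.09 for Rsad2, -0.11 to 0.70 for Cmpk2, -0.14 to 0.87 for Oasl1, -0.84 to 0.067 for Trim30a, -0.76 to 0.063 for Oas2, -0.92 to 0.13 for Isg15, -0.67 to 0.044 for Gbp7, -0.43 to 0.41 for Cxcl9 and -0.60 to 0.78 for Cxcl10. The smallest adjusted edgeR p for any of the 23 was then 0.204, for Gbp5. Of the 37 tested members, 34 had at least 100 counts in every library.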
